A study of Mus musculus with 14 samples.

Results

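Keratins are the intermediate filaments of epithelial cells, and 8 of them that mark the simple and basal layers of mammary epithelium were followed here in 4T1 tumor spheroids. The set was *Krt5*, *Krt7*, *Krt8*, *Krt14*, *Krt15*, *Krt17*, *Krt18* and *Krt19*, taken by gene symbol from a count table of 19525 genes and 14 libraries. The set was selected on the counts of *Krt15* in these libraries, which were already known to be lower in the knockdown spheroids. The values of *Krt15* are therefore given as a description with no test, and the other members were tested in the fit across all genes. Of the 8 members, 7 had a row in the table and *Krt5* was not analysed here.

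4T1 is a mouse triple-negative mammary carcinoma line. Spheroids formed over 5 days in lung-like medium, which imitates the nutrients of lung interstitial fluid, and the RNA was the cytosolic input of a polysome profiling experiment. ASP shSCR spheroids (n = 4) carried a non-targeting control hairpin and received 700 µM aspartate, and NoASP shSCR spheroids (n = 3) carried the same hairpin without added aspartate. ASP shGRIN2D (n = 3) and ASP shDHPS (n = 4) spheroids received 700 µM aspartate and carried a hairpin against *Grin2d*, which encodes the GluN2D chain of NMDA-type glutamate receptors, or against *Dhps*, the enzyme that starts hypusination of the translation factor eIF5A. All 4 groups were puromycin-selected polyclonal populations with a lentiviral hairpin, and no group without a hairpin was analysed here.

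The libraries held 12731123 to 23231378 counts each, and mitochondrial transcripts took 4.53% to 6.23% of them. *Dhps* fell in ASP shDHPS spheroids, from 19.4 to 6.93 CPM (counts per 1000000 counts of the library, after TMM scaling of its total), a log2 fold change of -1.48 (SE 0.15, edgeR adjusted p = 8.31e-06). *Grin2d* was at 3.60 CPM in ASP shSCR and at 2.46 CPM in ASP shGRIN2D spheroids, a log2 fold change of -0.55 (SE 0.28, edgeR adjusted p = 0.516). All 3 knockdown libraries were below all 4 ASP shSCR libraries, as was seen for 6.40% of all genes. They overlapped NoASP shSCR, where replicate 2 was at 3.05 CPM against 3.13 CPM in ASP shGRIN2D replicate 3. The ASP shGRIN2D libraries also overlapped ASP shDHPS, where *Grin2d* was at 2.21, 3.26, 4.59 and 3.52 CPM in replicates 1 to 4. Replicate 2 of both shSCR groups stood apart from the other shSCR libraries on the first principal component, at -45.8 and -33.5 against -14.8 to 9.37, so results that change without them are also given without them. Of 13 measured markers of luminal epithelium, *Epcam*, *Cdh1*, *Cd24a*, *Cldn3*, *Cldn4*, *Cldn7* and *Areg* had means of 75.7 to 558 CPM over all libraries, and *Prlr*, *Prom1*, *Muc1*, *Wfdc18*, *Csn3* and *Aldh1a3* reached at most 30 counts in any library. Of 12 measured basal and myoepithelial markers, *Itga6*, *Thy1*, *Sparc*, *Procr* and *Mylk* had means of 6.11 to 285 CPM, and *Trp63*, *Tagln*, *Myh11*, *Cnn1*, *Oxtr*, *Igfbp5* and *Cdh3* reached at most 19 counts. The study used a lentiviral Thy1.1 reporter in 4T1 cells for flow cytometry. Whether these spheroids carried it is not stated, so counts of *Thy1* may include it.

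Keratins assemble only as pairs of a type I (acidic) and a type II (basic) chain. In simple epithelia such as the luminal layer of the mammary duct the common pair is KRT8 with KRT18, joined by KRT7 and KRT19, whereas the basal layer is known for KRT5 with KRT14, and KRT15 and KRT17 are type I chains of basal and stressed or regenerating epithelium. The filaments are held at desmosomes between cells and at hemidesmosomes on the matrix. Of the members, *Krt5*, *Krt7* and *Krt8* code for type II chains and the other 5 for type I chains.

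The type I genes are close relatives, and this can bear on how reads were shared out between them. Over their coding sequences, *Krt15* was identical to *Krt17* at 73.8% of aligned bases, to *Krt19* at 74%, to *Krt14* at 73.3% and to *Krt18* at 64.1%. The stretch below holds the longest run that *Krt15* shares with *Krt17*, 50 bases without a difference, which ends the 80 bases shown. It lies in exon 1 of *Krt15*, at chr11:100135448-100135527 on the minus strand of GRCm38, in bases 332 to 411 of the coding sequence (GENCODE vM21). The same stretch lies in exon 1 of each of the other genes, with 3 differences in *Krt17*, 8 in *Krt14*, 8 in *Krt19* and 33 in *Krt18*. Capitals mark bases that differ from *Krt15*.
Krt15: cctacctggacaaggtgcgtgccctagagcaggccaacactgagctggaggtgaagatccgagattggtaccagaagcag
Krt17: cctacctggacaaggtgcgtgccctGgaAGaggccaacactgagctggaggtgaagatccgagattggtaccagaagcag
Krt14: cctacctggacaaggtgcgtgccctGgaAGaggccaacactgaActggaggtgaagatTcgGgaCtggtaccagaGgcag
Krt19: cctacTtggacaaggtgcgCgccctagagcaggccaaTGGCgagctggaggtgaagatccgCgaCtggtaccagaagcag
Krt18: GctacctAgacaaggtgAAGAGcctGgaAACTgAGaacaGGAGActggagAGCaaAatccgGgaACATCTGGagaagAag

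Such stretches were short in *Krt15*. Of its 1341 coding words of 31 bases, 65 (4.85%) also occurred in a transcript of another gene, 36 of them in *Krt17*. The share was 0.677% in *Krt19* and 1.41% in *Krt7*, against 12.9% in *Krt18*, 18.9% in *Krt17*, 34.2% in *Krt14* (302 words in *Krt16*) and 43.2% in *Krt8* (621 words in *Krt8-ps*). Levels of the last 3 genes may therefore depend on how the quantifier divided shared reads, and their near-identical relatives are given beside them where a result turns on it. Reads were longer than these words, and how many reads were shared between genes was not measured.

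Per length of coding sequence, *Krt8*, *Krt18* and *Krt7* stood far above the other members. In ASP shSCR spheroids *Krt8* was at 1139 ± 35.5 CPM per kilobase (SD, n = 4), *Krt18* at 958 ± 51.0 and *Krt7* at 627 ± 34.5. *Krt19* followed at 131 ± 22.9 and *Krt14* at 57.3 ± 4.76 CPM per kilobase. *Krt15*, at 4.21 ± 0.819, and *Krt17*, at 0.730 ± 0.524 CPM per kilobase, were the least abundant members. Neighbors in this order differed there by more than their SDs, and the order was the same in all 4 group means. The 7 members together made up 0.401% ± 0.00845 of the TMM-scaled library total in ASP shSCR spheroids (SD, n = 4), 0.396% ± 0.0144 in NoASP shSCR (n = 3), 0.297% ± 0.0153 in ASP shGRIN2D (n = 3) and 0.318% ± 0.0317 in ASP shDHPS (n = 4). Between 0.280% and 0.354% of that total came from members in the 7 knockdown libraries, and at least 0.385% in each of the 7 shSCR libraries. In bulk RNA, fewer cells of a type and less RNA per cell cannot be told apart.

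*Krt15* had 126, 133, 108 and 62 counts in ASP shSCR replicates 1 to 4, which is 5.51, 7.41, 5.29 and 4.87 CPM. In NoASP shSCR replicates 2 to 4 it had 95, 68 and 54 counts, or 5.09, 3.59 and 3.00 CPM. ASP shGRIN2D libraries gave 49, 40 and 33 counts, or 2.52, 2.35 and 2.20 CPM, and ASP shDHPS libraries 35, 19, 32 and 26 counts, or 1.84, 1.27, 1.73 and 1.39 CPM. The order of the groups was thus ASP shSCR, NoASP shSCR, ASP shGRIN2D and ASP shDHPS, and only the libraries of the 2 shSCR groups overlapped. Mean levels were 5.77 ± 1.12 CPM (SD, n = 4), 3.89 ± 1.07 (n = 3), 2.36 ± 0.162 (n = 3) and 1.56 ± 0.272 (n = 4) in that order. Against ASP shSCR, the log2 fold change was -1.29 (SE 0.23) in ASP shGRIN2D, 2.44-fold lower, and -1.88 (SE 0.22) in ASP shDHPS, 3.69-fold lower. ASP shDHPS libraries were below ASP shGRIN2D libraries by -0.59 (SE 0.25) on the log2 scale. ASP shSCR replicate 2 was the highest of all 14 libraries, and without replicate 2 of both shSCR groups the log2 fold changes were -1.15 in ASP shGRIN2D and -1.74 in ASP shDHPS. Counts were 19 to 133 per library, so *Krt15* is among the less precisely measured members.

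**Figure D1:**
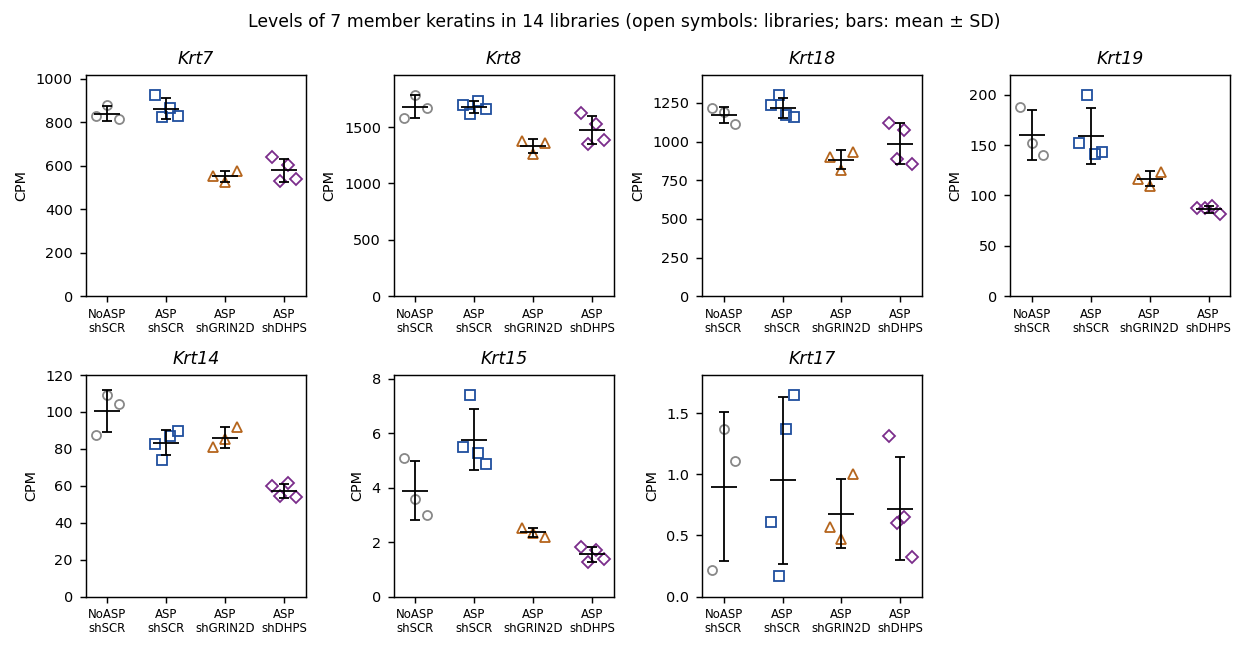
Level of each member keratin in each library, in CPM on linear axes that start at 0, with open symbols for the libraries and black bars for the group mean ± SD (NoASP shSCR n = 3, ASP shSCR n = 4, ASP shGRIN2D n = 3, ASP shDHPS n = 4). All *Krt7* and *Krt15* libraries of both knockdowns lie below all shSCR libraries, *Krt14* and *Krt19* are lowest in ASP shDHPS, and *Krt17* spreads as widely within groups as between them.

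Among the type II chains, *Krt7*, which marks glandular and ductal epithelium, had the steadiest difference. Its levels were 927, 824, 868 and 829 CPM in ASP shSCR replicates 1 to 4 and 827, 878 and 815 CPM in NoASP shSCR replicates 2 to 4. ASP shGRIN2D libraries were at 554, 526 and 576 CPM, and ASP shDHPS libraries at 642, 531, 605 and 541 CPM. Every knockdown library was below every shSCR library. *Krt7* fell 1.56-fold in ASP shGRIN2D spheroids (log2 fold change -0.64, SE 0.09, edgeR adjusted p = 0.000297) and 1.49-fold in ASP shDHPS spheroids (-0.57, SE 0.08, edgeR adjusted p = 0.000313). Both calls held without any 1 library. Both comparisons use the same 4 ASP shSCR libraries.

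*Krt8*, the main type II chain of simple epithelium, was at 1697, 1612, 1736 and 1665 CPM in ASP shSCR and at 1379, 1261 and 1360 CPM in ASP shGRIN2D libraries. These groups did not overlap, but the log2 fold change of -0.33 (SE 0.09) did not pass the test (edgeR adjusted p = 0.0748). It passed with library sizes not scaled by TMM (0.0324), after a filter on low counts (0.0487), with only the groups compared (0.0206) and with DESeq2 (adjusted p = 0.00152). It passed in 0 of 7 fits with a library left out (edgeR adjusted p up to 0.348). Against NoASP shSCR it did not pass either (edgeR adjusted p = 0.126). In ASP shDHPS libraries *Krt8* was at 1627, 1351, 1524 and 1389 CPM, which overlapped ASP shSCR, with a log2 fold change of -0.19 (SE 0.08, edgeR adjusted p = 0.203). Adding the counts of *Krt8-ps*, at 3.30 to 4.24 CPM in the group means, left both values at -0.33 and -0.19.

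*Krt18*, the type I partner of *Krt8*, was at 1236, 1303, 1175 and 1161 CPM in ASP shSCR libraries. It was at 900, 816 and 934 CPM in ASP shGRIN2D and at 1123, 890, 1075 and 853 CPM in ASP shDHPS libraries, all below ASP shSCR. *Krt18* fell 1.38-fold in ASP shGRIN2D spheroids (log2 fold change -0.46, SE 0.10, edgeR adjusted p = 0.0190). Without ASP shGRIN2D replicate 1, 2 or 3 the adjusted p was 0.0836, 0.147 or 0.0578, so this call needed all 3 libraries of that group. In ASP shDHPS the log2 fold change was -0.31 (SE 0.09, edgeR adjusted p = 0.0600), and it passed without ASP shDHPS replicate 1 (edgeR adjusted p = 0.0164), with library sizes not scaled by TMM (0.0421), after a filter on low counts (0.0489) and with DESeq2 (adjusted p = 0.0107). Of the 8 fits with a library left out, only the fit without ASP shDHPS replicate 1 passed (edgeR adjusted p up to 0.173). Against NoASP shSCR the fall in ASP shDHPS did not pass (edgeR adjusted p = 0.197). The log2 ratio of *Krt8* to *Krt18* was 0.46 ± 0.11 in ASP shSCR (SD, n = 4), 0.60 ± 0.05 in ASP shGRIN2D (n = 3) and 0.59 ± 0.09 in ASP shDHPS (n = 4), with overlapping libraries. The log2 ratio of *Krt7* to *Krt8* moved further, from -0.96 ± 0.06 in ASP shSCR (n = 4) to -1.27 ± 0.04 in ASP shGRIN2D (n = 3) and -1.35 ± 0.01 in ASP shDHPS (n = 4), with no overlap between shSCR and knockdown libraries.

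*Krt19*, the smallest type I keratin, was lowest where *Krt15* was lowest. Its levels were 152, 200, 141 and 143 CPM in ASP shSCR libraries, with replicate 2 highest. They were 117, 109 and 124 CPM in ASP shGRIN2D and 87.8, 87.2, 89.4 and 81.2 CPM in ASP shDHPS libraries. The 3 groups did not overlap. *Krt19* fell 1.84-fold in ASP shDHPS spheroids (log2 fold change -0.88, SE 0.11, edgeR adjusted p = 7.72e-05), a call that held without any 1 library. In ASP shGRIN2D the log2 fold change was -0.45 (SE 0.12, edgeR adjusted p = 0.0725), which passed with a robust prior (0.0482), with only the groups compared (0.0354) and with DESeq2 (adjusted p = 0.0150). It passed in 0 of 7 fits with a library left out (edgeR adjusted p up to 0.311). Against NoASP shSCR it did not pass either (edgeR adjusted p = 0.113). The log2 ratio of *Krt19* to *Krt18* was -2.95 ± 0.17 in ASP shSCR (SD, n = 4), -2.92 ± 0.02 in ASP shGRIN2D (n = 3) and -3.50 ± 0.16 in ASP shDHPS (n = 4).

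*Krt14*, the type I chain of the basal layer, differed in ASP shDHPS spheroids. It was at 82.8, 74.0, 87.2 and 89.7 CPM in ASP shSCR and at 80.8, 85.5 and 92.0 CPM in ASP shGRIN2D libraries, which overlapped (log2 fold change 0.05, SE 0.10, edgeR adjusted p = 0.935). ASP shDHPS libraries were at 59.8, 54.4, 61.5 and 53.9 CPM, below all others. *Krt14* fell 1.45-fold there (log2 fold change -0.54, SE 0.09, edgeR adjusted p = 0.00186), also without any 1 library. With the counts of *Krt16*, *Krt17* and *Krt42* added to it, because these share stretches with *Krt14*, the log2 fold change was -0.50 (edgeR adjusted p = 0.00429). *Krt17*, a keratin of injured epithelium, had 3 to 28 counts per library. Its mean was 0.950 ± 0.682 CPM in ASP shSCR (SD, n = 4), 0.899 ± 0.607 in NoASP shSCR (n = 3), 0.679 ± 0.282 in ASP shGRIN2D (n = 3) and 0.720 ± 0.421 in ASP shDHPS (n = 4), and no difference was detectable at this depth.

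Of the 6 tested members, 3 fell in ASP shDHPS spheroids (*Krt7*, *Krt14* and *Krt19*), where 2.57% of all 19525 genes were called lower and 4.22% were called in either direction. In ASP shGRIN2D spheroids 2 of 6 fell (*Krt7* and *Krt18*), where 0.732% of all genes were called lower and 1.16% in either direction. No member was called higher. Abundant genes were called more often, 6.93% of the 10224 genes averaging 5 CPM or more in ASP shDHPS and 1.89% of them in ASP shGRIN2D. Groups of libraries with no overlap and lower levels in the knockdown were seen for 4 of the 6 in each comparison, beside 5.80% of all genes in ASP shDHPS and 6.40% in ASP shGRIN2D. The median log2 fold change of the 6 was -0.45 in ASP shDHPS and -0.46 in ASP shGRIN2D, against 0.00 over all genes in both.

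**Figure D2:**
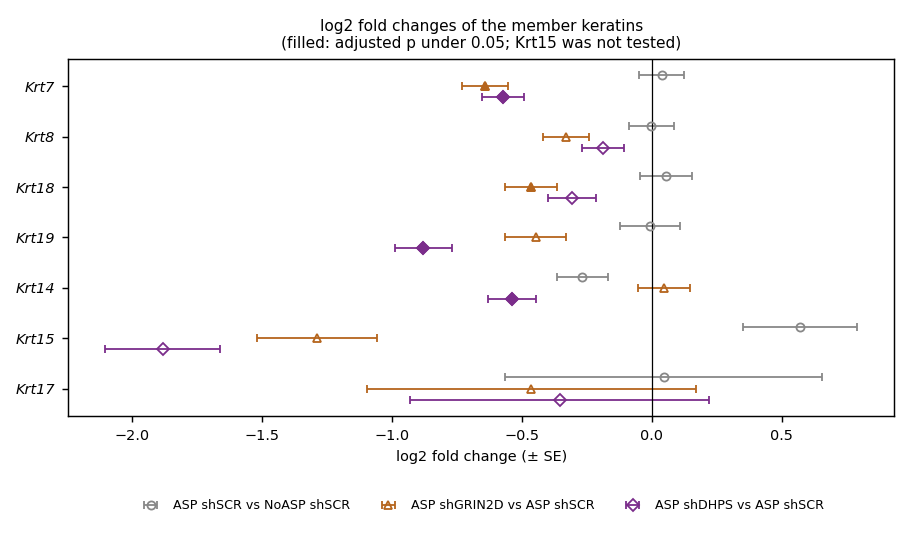
log2 fold change of each member keratin in 3 comparisons, with bars for the standard error. Filled symbols passed an edgeR adjusted p of 0.05 and *Krt15* was not tested; the knockdown values of *Krt7*, *Krt8*, *Krt18*, *Krt19* and *Krt15* lie left of 0, and the aspartate values of all members but *Krt14* and *Krt15* lie within 0.1 of 0.

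The direct comparison of the knockdowns, which both received aspartate, separated the members. Between the knockdowns 1.62% of all genes were called lower, 1.20% higher and 2.82% in either direction. *Krt14* was lower in ASP shDHPS than in ASP shGRIN2D spheroids (log2 fold change -0.58, SE 0.10, edgeR adjusted p = 0.00139), and so was *Krt19* (-0.43, SE 0.12, edgeR adjusted p = 0.0457). Both had all ASP shDHPS libraries below all ASP shGRIN2D libraries, as did 7.47% of all genes. The *Krt14* call held without any 1 library. The *Krt19* call was lost without any 1 of the 3 ASP shGRIN2D or 4 ASP shDHPS libraries, at an adjusted p of 0.0647 to 0.202. *Krt7* (0.07, SE 0.09), *Krt8* (0.14, SE 0.09) and *Krt18* (0.16, SE 0.10) did not pass, with edgeR adjusted p of 0.749, 0.464 and 0.477, and *Krt17* was at 0.11 (SE 0.64).

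Aspartate alone, compared in the control-hairpin spheroids, gave no called member. No gene of 19525 passed (0%), by edgeR or by DESeq2. By edgeR, 424 had an unadjusted p under 0.05, fewer than chance alone gives at that threshold among 19525 genes. *Krt15* was 0.57 (SE 0.22) higher in log2 with aspartate, at 5.77 against 3.89 CPM, with overlapping libraries. Within the same-numbered pairs 2, 3 and 4, *Krt15* was higher with aspartate each time (7.41 against 5.09, 5.29 against 3.59 and 4.87 against 3.00 CPM). The set was selected on *Krt15* in these libraries, so these values are a description and no test of aspartate. The labels do not say whether the numbers pair libraries. The log2 fold change of *Krt15* was 0.66 without replicate 2 of both shSCR groups. *Krt14* was at 83.4 ± 6.92 CPM with aspartate (SD, n = 4) and 100.4 ± 11.5 CPM without it (n = 3), a log2 fold change of -0.27 (SE 0.10, edgeR adjusted p = 1). The NoASP shSCR libraries, replicates 2 to 4, were at 87.4, 109 and 105 CPM for *Krt14* and at 188, 152 and 141 CPM for *Krt19*. *Krt14* was lower with aspartate within each of the 3 pairs (edgeR adjusted p = 0.118 in the blocked fit of the 7 shSCR libraries). The libraries were at 1582, 1787 and 1669 CPM for *Krt8* and at 1215, 1190 and 1114 CPM for *Krt18*. All of these groups overlapped those of ASP shSCR. *Krt7*, *Krt8*, *Krt17*, *Krt18* and *Krt19* had log2 fold changes of 0.04, 0.00, 0.05, 0.05 and -0.01. Same-numbered libraries of these groups deviated together, and a fit blocked by replicate number called 2 genes, or 64 when the 7 shSCR libraries were fitted alone, none of them a tested member.

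With NoASP shSCR libraries as the control, the *Krt15* differences were smaller. The log2 fold change was -0.72 (SE 0.25) in ASP shGRIN2D and -1.31 (SE 0.24) in ASP shDHPS. *Krt7* fell in ASP shGRIN2D (-0.61, SE 0.09, edgeR adjusted p = 0.00144), where 0.435% of all genes were called lower and 0.681% in either direction. *Krt18* did not pass (-0.41, SE 0.11, edgeR adjusted p = 0.0862). *Krt7* (-0.53, SE 0.09), *Krt14* (-0.81, SE 0.10) and *Krt19* (-0.89, SE 0.12) fell in ASP shDHPS, with edgeR adjusted p of 0.00228, 0.000165 and 0.000299, where 1.19% were called lower and 1.81% in either direction. These groups differ in aspartate as well as in the hairpin.

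The windows around the start sites of *Krt7*, *Krt8* and *Krt18*, the 3 most abundant members, are shown because all 3 had lower means in both knockdowns than in ASP shSCR. RefSeq windows of 300 bases (250 before to 50 after the start site, GRCm38.p6) matched 5 of the 8 members by symbol (*Krt5*, *Krt7*, *Krt8*, *Krt14* and *Krt18*). The 3 printed windows lie at chr15:101412153-101412452 (plus strand), chr15:102004293-102004592 (minus strand) and chr15:102027966-102028265 (plus strand). Both strands were searched for GGGCGG (an SP1 motif), TATAAA (a core promoter element), TGANTCA (an AP-1 motif) and CATTCC (a TEAD motif), and matches are in capitals. The adjoining capitals in *Krt8* are 2 overlapping matches to TATAAA, 1 on each strand.
Krt7: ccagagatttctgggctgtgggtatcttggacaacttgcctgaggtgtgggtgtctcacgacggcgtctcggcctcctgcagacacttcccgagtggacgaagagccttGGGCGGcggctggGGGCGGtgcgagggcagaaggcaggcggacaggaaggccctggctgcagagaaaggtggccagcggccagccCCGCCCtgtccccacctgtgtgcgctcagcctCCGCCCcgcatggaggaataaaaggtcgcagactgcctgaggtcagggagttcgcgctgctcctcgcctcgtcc
Krt8: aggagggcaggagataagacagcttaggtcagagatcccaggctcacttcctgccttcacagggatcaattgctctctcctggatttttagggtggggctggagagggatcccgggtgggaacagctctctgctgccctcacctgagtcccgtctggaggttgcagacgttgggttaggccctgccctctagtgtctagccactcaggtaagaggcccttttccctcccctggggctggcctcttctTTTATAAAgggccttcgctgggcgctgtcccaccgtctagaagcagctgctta
Krt18: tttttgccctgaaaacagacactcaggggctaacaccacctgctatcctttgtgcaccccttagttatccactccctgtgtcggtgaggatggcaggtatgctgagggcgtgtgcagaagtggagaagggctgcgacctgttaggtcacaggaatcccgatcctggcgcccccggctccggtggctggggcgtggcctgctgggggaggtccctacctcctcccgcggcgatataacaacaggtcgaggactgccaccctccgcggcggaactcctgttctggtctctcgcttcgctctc

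*Krt7* held 4 matches to GGGCGG, a number reached by 5.49% of all 32851 RefSeq windows of this length, and 35.7% of them held at least 1. TATAAA, found in *Krt8*, occurred in 13.6% of windows, TGANTCA in 7.81% and CATTCC in 14.7%. The *Krt8* matches began at -3 and -1 from the annotated start site, so they span it, and their use as a promoter element was not tested. *Krt18* held none of the 4 motifs. No motif was common to the 3 windows.

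Outside the members, the table held other genes of the keratin family, and 6 reached a mean of 1 CPM in at least 1 group. *Krt13*, a type I chain of stratified mucosal epithelium, was at 6.38, 8.80, 5.88 and 8.41 CPM in ASP shSCR and at 3.73, 2.53, 3.89 and 2.35 CPM in ASP shDHPS libraries, with no overlap. It fell there by 1.22 on the log2 scale (SE 0.22, edgeR adjusted p = 0.00280). *Krt23*, a type I keratin, had 18 to 46 counts in ASP shSCR and 1 to 7 counts in ASP shDHPS libraries and fell by 2.77 on the log2 scale (SE 0.47, edgeR adjusted p = 0.00163). Both calls held without any 1 library. In ASP shGRIN2D spheroids *Krt13* was at -0.42 (SE 0.23) and *Krt23* at -1.25 (SE 0.45), with edgeR adjusted p of 0.549 and 0.257. *Krt80*, a type II chain, was at 34.2 ± 0.696 CPM in ASP shGRIN2D (SD, n = 3) and 51.7 ± 5.11 CPM in ASP shDHPS (n = 4), a log2 difference of 0.60 between the knockdowns (SE 0.17, edgeR adjusted p = 0.0693). *Krt10*, *Krt16* and *Krt8-ps* had means of 3.13 to 4.42 CPM in every group and passed in no comparison.

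**Figure D3:**
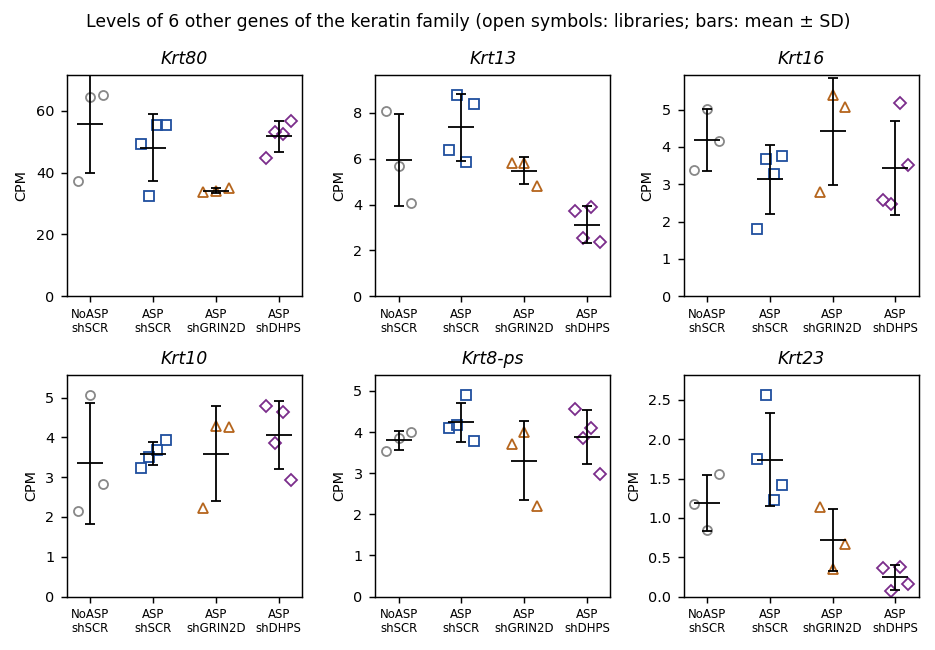
Levels of 6 further genes of the keratin family in CPM, on linear axes that start at 0, with open symbols for the libraries and black bars for the mean ± SD (n = 3 or 4). *Krt13* and *Krt23* lie lower in all 4 ASP shDHPS libraries than in any ASP shSCR library, whereas *Krt10*, *Krt16* and *Krt8-ps* overlap between the groups.

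The proteins that anchor keratin were measured through a list of 22 desmosome and hemidesmosome genes, of which 20 had a row. In ASP shDHPS spheroids 5 of the 20 fell and none was called higher, beside the 2.57% of all genes called lower. Of the 20, 17 averaged 5 CPM or more, and 6.93% of all genes that abundant were called there in either direction. *Dsg3* and *Dsg2*, desmosomal cadherins, fell by 0.84 (SE 0.19, edgeR adjusted p = 0.0134) and 0.55 (SE 0.11, edgeR adjusted p = 0.00685) on the log2 scale. *Itgb4*, the integrin chain of the hemidesmosome, fell from 371 to 230 CPM (log2 fold change -0.69, SE 0.14, edgeR adjusted p = 0.00660). *Jup*, plakoglobin, fell from 329 to 242 CPM (-0.45, SE 0.11, edgeR adjusted p = 0.0171), and *Pkp3*, plakophilin 3, from 165 to 133 CPM (-0.31, SE 0.08, edgeR adjusted p = 0.0377). *Pkp3* was named after its value was seen. The calls of *Dsg2*, *Dsg3* and *Itgb4* held without any 1 library. The *Jup* call was lost without ASP shSCR replicate 2 (adjusted p = 0.0687), and the *Pkp3* call without any of 6 of the 8 libraries, ASP shSCR replicates 1, 2 and 4 and ASP shDHPS replicates 1, 2 and 3 (adjusted p up to 0.104).

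The median log2 fold change of the 20 anchor genes was -0.34 in ASP shDHPS and -0.08 in ASP shGRIN2D, against 0.00 over all genes. *Dsp*, desmoplakin, which ties keratin to the desmosome, was at -0.31 (SE 0.13, edgeR adjusted p = 0.197) and *Plec*, plectin, at -0.28 (SE 0.24, edgeR adjusted p = 0.570) in ASP shDHPS. In ASP shGRIN2D spheroids 0 of 20 passed by edgeR and 1, *Dsg2*, by DESeq2. *Itgb4* was lower in ASP shDHPS than in ASP shGRIN2D (-0.57, SE 0.15, edgeR adjusted p = 0.0382), a call lost without ASP shGRIN2D replicate 1 or 3 or ASP shDHPS replicate 1 or 2 (adjusted p up to 0.217). The call was also lost with library sizes not scaled by TMM, after a filter on low counts and with a robust prior (edgeR adjusted p up to 0.0951).

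**Figure D4:**
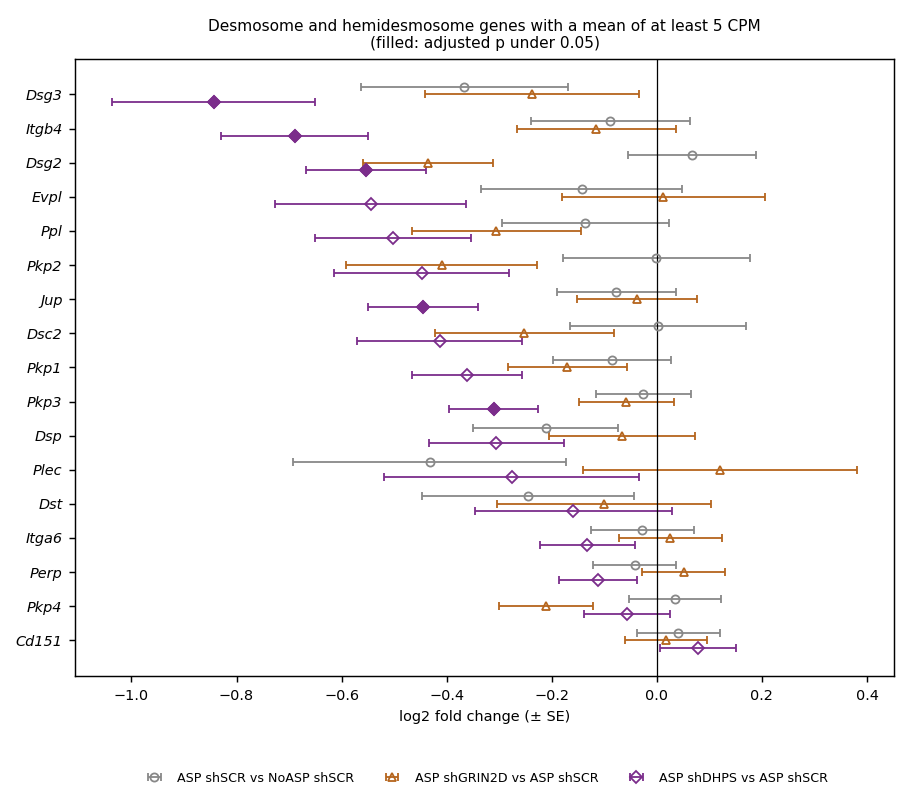
log2 fold change of the 17 desmosome and hemidesmosome genes averaging 5 CPM or more, with bars for the standard error and filled symbols for an edgeR adjusted p under 0.05. The genes are ordered by their value in ASP shDHPS, where 16 of the 17 lie left of 0 and 5 are filled.

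Among 12 other intermediate filament genes measured, *Vim*, vimentin, the filament of mesenchymal cells and of many carcinoma lines, rose from 1167 to 1567 CPM in ASP shDHPS spheroids (log2 fold change 0.43, SE 0.08, edgeR adjusted p = 0.00530), where 1.65% of all genes were called higher. With NoASP shSCR as the control *Vim* did not pass (edgeR adjusted p = 0.0652). In ASP shGRIN2D it was at 1440 CPM (0.30, SE 0.09, edgeR adjusted p = 0.133). The list of cornified envelope genes and epidermal keratins had 12 measured genes. Of these, *Sbsn*, suprabasin, rose by 1.06 (SE 0.23, edgeR adjusted p = 0.00841) and *Krt13* fell in ASP shDHPS, and none passed in ASP shGRIN2D. The share called in ASP shDHPS was 16.7% of the measured list, beside 4.22% of all genes. *Sbsn* did not pass with NoASP shSCR as the control (edgeR adjusted p = 0.218). Of 28 transcription factors of epithelial identity, *Grhl2* fell by 0.32 in ASP shDHPS (SE 0.09, edgeR adjusted p = 0.0461) and *Esr1* by 0.83 in ASP shGRIN2D (SE 0.19, edgeR adjusted p = 0.0341). Each was 3.57% of the list, beside 4.22% of all genes called in ASP shDHPS and 1.16% in ASP shGRIN2D. In ASP shDHPS the list was thus called no more often than all genes. The *Grhl2* call held without only 1 of the 8 libraries in turn (ASP shDHPS replicate 4) and the *Esr1* call without only 1 of the 7 (ASP shSCR replicate 3), at an adjusted p of up to 0.156 and 0.192.

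Markers of luminal epithelium did not move in 1 direction. Of the 13 measured, 15.4% were called in ASP shDHPS, 7.69% in ASP shGRIN2D and 23.1% between the knockdowns. The shares of all genes were 4.22%, 1.16% and 2.82% in that order. In ASP shDHPS spheroids *Epcam*, an epithelial adhesion molecule, fell from 649 to 451 CPM (log2 fold change -0.52, SE 0.08, edgeR adjusted p = 0.000779) and *Cldn3*, a tight junction claudin, rose from 100.1 to 132 CPM (0.40, SE 0.10, edgeR adjusted p = 0.0179). The *Cldn3* call was lost without ASP shSCR replicate 2 or ASP shDHPS replicate 3 (adjusted p up to 0.0574). In ASP shGRIN2D spheroids *Cldn7* fell from 82.8 to 57.6 CPM (-0.52, SE 0.11, edgeR adjusted p = 0.0172), a call lost without ASP shSCR replicate 1 or any ASP shGRIN2D library (adjusted p up to 0.122). *Cldn3* (0.68, SE 0.11), *Cldn4* (0.45, SE 0.09) and *Cldn7* (0.46, SE 0.11) were higher in ASP shDHPS than in ASP shGRIN2D, with edgeR adjusted p of 0.000576, 0.00555 and 0.0248. The *Cldn7* call there was lost without any ASP shGRIN2D library or ASP shDHPS replicate 1 or 3. Of the basal list *Procr* rose in ASP shDHPS (0.74, SE 0.17, edgeR adjusted p = 0.0169), lost without ASP shSCR replicate 2 or ASP shDHPS replicate 3 (adjusted p up to 0.0698). It was the only call there among the 12 measured genes of that list (8.33%).

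Markers of other cells were low. The 6 measured immune markers summed to 6.60 to 13.2 CPM in ASP shSCR, 10.8 to 11.6 in NoASP shSCR, 9.01 to 10.8 in ASP shGRIN2D and 13.2 to 17.6 CPM in ASP shDHPS libraries, mostly *Cd68*, and *Ptprc* had at most 12 counts in a library. The 3 endothelial markers summed to 1.45 to 2.45, 1.39 to 2.69, 2.58 to 3.33 and 2.86 to 5.36 CPM in the same order, mostly *Tie1*, which was higher in ASP shDHPS (1.47, SE 0.27, edgeR adjusted p = 0.00323), with *Pecam1* at most at 10 and *Cdh5* at most at 3 counts. The 4 fibroblast markers summed to 22.9 to 41.7 CPM over all libraries, nearly all of it *Pdgfra*, with *Dcn* at most at 1 count.

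The level of *Krt15* was compared with that of the 10224 genes averaging 5 CPM or more, by Pearson's r of log2 CPM over the 14 libraries. The 5 most similar genes were *Epcam* (r = 0.965), *Echdc3* (0.948), *Clu* (0.943), *Samd12* (0.940) and *Krt19* (0.934). *Clu* codes for clusterin, a secreted chaperone. These values describe a pattern shared by libraries of the same groups. With the group means removed, r to *Krt15* was 0.80 for *Epcam*, 0.88 for *Echdc3*, 0.86 for *Clu*, 0.44 for *Samd12* and 0.81 for *Krt19*. Without replicate 2 of both shSCR groups (12 libraries) these were 0.75, 0.66, 0.53, -0.13 and 0.36, whereas r of the levels themselves stayed between 0.912 and 0.958 for the 5 genes. The 5 genes were picked by r over these same libraries, so their values are a description and no separate test of similarity. Values of r with group means removed are not given for all genes. Of the other members, *Krt7* (r = 0.858) ranked 52, *Krt18* (0.785) 208, *Krt8* (0.647) 757 and *Krt14* (0.601) 1038 of the 10224. With group means removed, r was 0.29 for *Krt7*, 0.11 for *Krt8*, 0.69 for *Krt18*, -0.50 for *Krt14* and -0.57 for *Krt17*. Without replicate 2 of both shSCR groups it was 0.84, 0.87, 0.80, 0.38 and 0.27 in that order, so the signs of *Krt14* and *Krt17* and the low values of *Krt7* and *Krt8* rested on those 2 libraries.

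**Figure D5:**
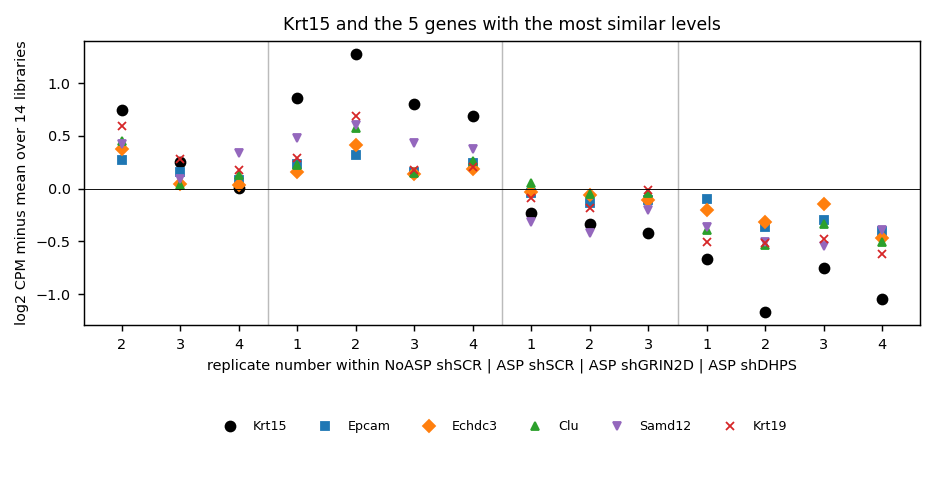
log2 CPM of *Krt15* (black circles) and of the 5 genes most similar to it, each minus its mean over the 14 libraries, with libraries in order of group and grey lines between groups. All 6 genes lie above 0 in the ASP shSCR libraries and below 0 in the ASP shDHPS libraries, and *Krt15* spans the widest range.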

How the data were processed

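RNA was the cytosolic input of polysome profiling from 14 spheroid samples, made into libraries with a stranded poly(A) kit. Per the study's methods and processing notes, the authors trimmed reads with Trim Galore 0.6.6, checked them with FastQC 0.11.9, aligned them with STAR 2.6.1 and quantified them with Salmon 1.4.0 against mm39 (GRCm39). The deposited values are Salmon estimates rounded to whole counts by the authors, with genes not expressed in at least 2 replicates of a condition removed. Salmon divides reads between near-identical genes, so counts of such genes can depend on that division. The authors' tables of fold changes, p-values, q-values, ranking scores and enrichment scores, made with DESeq2 1.34.0, were not used.

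All 19525 genes and 14 libraries were fitted together by group with edgeR 4.0.16 (quasi-likelihood test, TMM scaling, R 4.3.3, limma 3.58.1), with Benjamini-Hochberg adjustment over all genes and a threshold of 0.05. The standard error is the log2 fold change divided by the square root of F. CPM are counts per 1000000 counts of the library total multiplied by its TMM factor, and log2 CPM used a prior count of 2. The methods give 4 independent pellets of spheroids per condition for the polysome fractions, and the input RNA was kept from those experiments, so replicates are taken as separate pellets of the same hairpin population. The statistical procedure was tested on simulated data.

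The member keratins and the gene lists were chosen with earlier results of these data known. Named genes were all members, further keratin genes with a group mean of at least 1 CPM, per list and comparison up to 4 called genes with the largest change and at least 5 CPM, the 5 genes most similar to *Krt15*, and the targeted genes. *Pkp3*, *Tie1* and genes named by a missed test were added to these.

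Same-numbered libraries of ASP shSCR and NoASP shSCR deviated together from their group means (r = 0.51, 0.29 and 0.20 for replicates 2, 3 and 4), which pairs them by their values only. Alternatives were DESeq2 1.42.0, other scalings and filters, a replicate block, fits of only the groups compared and fits without each library. The NoASP shSCR control, the blocked fit of 7 shSCR libraries, the summed near-identical keratins and the similarity to *Krt15* without replicate 2 of both shSCR groups were added after seeing the data. Sequences came from GENCODE vM21 and RefSeq on GRCm38, and no coordinate was moved between builds.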

Additional observations from a re-analysis of the deposited data

Results flagged for a closer look

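The knockdowns differed from each other in 2 members by the direct test over all genes. *Krt14* was -0.58 on the log2 scale in ASP shDHPS against ASP shGRIN2D spheroids and *Krt19* was -0.43, the second of these lost when any ASP shGRIN2D or ASP shDHPS library was left out. Among 37 sets of 4 libraries of 1 gene in 1 group, 1 had a library far from the other 3 by Dixon's criterion, which chance gives in about 1 of 20. It was *Echdc3* in ASP shSCR replicate 2, the highest at 41.8 CPM. *Echdc3* was named for its similarity to *Krt15*, which was also highest in that library, so the rate of 1 of 20 does not apply to it.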

How the results depend on the processing

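The set was selected on *Krt15* in these same libraries, so its values here are a description and no test of its fall. *Krt15* had the same direction in every alternative run. With libraries left out in turn its log2 fold change ranged from -1.36 to -1.15 in ASP shGRIN2D, from -1.97 to -1.74 in ASP shDHPS, from -0.68 to -0.51 between the knockdowns and from 0.41 to 0.81 for aspartate, and with NoASP shSCR as the control it was -0.72 and -1.31. Called members numbered 1 to 2 in ASP shGRIN2D, 3 to 4 in ASP shDHPS, 1 between the knockdowns and 0 for aspartate with libraries left out. In the anchor, cornified, filament and transcription factor lists together, where 1, 9, 1 and 0 genes were called in that order, leaving out libraries gave 0 to 1, 6 to 11, 0 to 2 and 0.

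In ASP shGRIN2D, called members were 4 with DESeq2, 4 with only the groups compared and 1 with NoASP shSCR as the control, and list genes were 5, 3 and 0, and 2 after filterByExpr. Both gains of 2 members were *Krt8* and *Krt19*. Library size without TMM and filterByExpr (each adding *Krt8*) and a robust prior (adding *Krt19*) gave 3. Between the knockdowns, library size without TMM gave 1 member and 0 list genes, filterByExpr 0, and DESeq2, only the groups compared and leaving out replicate 2 of both shSCR groups 3 list genes each.

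With the replicate block, called members were 4 in ASP shGRIN2D and list genes 7, 19 and 13 in ASP shGRIN2D, ASP shDHPS and between the knockdowns. Correlations of same-numbered deviations in these comparisons were -0.10, -0.12 and 0.04 for ASP shGRIN2D, 0.26, 0.20, 0.20 and 0.04 for ASP shDHPS and 0.01, 0.03 and 0.23 between the knockdowns. The labels do not say whether the numbers pair libraries, and whether the main fit should hold a block was not tested. In the block on the 7 shSCR libraries 1 list gene, *Plec*, passed for aspartate.

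Of all genes, 226, 824 and 550 were called in ASP shGRIN2D, ASP shDHPS and between the knockdowns, against 442, 1379 and 933 with DESeq2 and 611, 2150 and 1468 with the block. Leaving out libraries gave 86 to 208, 412 to 894 and 209 to 577, only the groups compared gave 374 in ASP shGRIN2D, and leaving out replicate 2 of both shSCR groups gave 849 between the knockdowns. The cause of these differences was not tested. With NoASP shSCR as the control *Vim*, *Sbsn*, *Cldn3*, *Procr*, *Grhl2* and *Pkp3* no longer passed in ASP shDHPS, nor *Cldn7* and *Esr1* in ASP shGRIN2D. *Procr* was also lost with a robust prior, and *Jup*, *Pkp3*, *Grhl2* and *Esr1* without replicate 2 of both shSCR groups. Counts of 3 to 28 limit *Krt17*.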
